A study of Mus musculus with 25 samples.

Results

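The 42 genes described here are cell cycle and replication genes, a list put together by function. It was chosen with earlier results of these data known, so comparisons of the list with all genes are not independent of them. It holds proliferation marks, genes of DNA replication and nucleotide supply, cyclins and their switches, mitotic kinases, centromere and spindle genes, and 3 transcription factors. All 42 were found by symbol among the 53070 genes of the deposited count table that holds most of the libraries, and also in the second table, of 55304 genes. The study asked how loss of chromatin and tumour suppressor genes alters mouse mammary tumours driven by mutant Pik3ca, and RNA was sequenced from 25 tumours.

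All 25 tumours carried LSL-Pik3caH1047R, an activated Pik3ca allele switched on by Cre, and LSL-Cas9-EGFP, which Cre switches on to give Cas9 and a green reporter. In 19 tumours of F1 C57BL/6 x FVB/N mice, a lentivirus delivered Cre and a guide RNA. The guides were non-targeting (2 tumours) or aimed at Asxl2 (2), Kdm6a (2), Kmt2c (3), Setd2 (2), Apc (4) or Trp53 (4). In 6 tumours of mixed C57BL/6 x FVB/N mice, an adenovirus delivered Cre under the Krt5 promoter, which is active in basal mammary cells; 3 of these tumours were Kdm6a wildtype and 3 Kdm6a fl/fl. The labels give no ages. After digestion with collagenase and trypsin, GFP-positive, DAPI-negative (live) cells were sorted, which selects for cells in which the reporter was on. Immune, fibroblast and endothelial markers were still detected, at high levels in some libraries as given below, and their source was not tested. The labels do not say whether tumours of a group came from separate animals, so p-values measure the spread between these libraries.

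The count columns carry running numbers and no tumour names. The design text places numbers 1 to 19 in the guide experiment and 20 to 25 in the Cre-Lox experiment, and libraries 23 and 24 are Kdm6a fl/fl because the descriptions of 2 such tumours alone name the second table. Which guide was used in libraries 1 to 19 is given by no label. Among libraries 20, 21, 22 and 25 there are 3 wildtype tumours and 1 fl/fl tumour, and which is which is not given either. The order of the sample records was not used to fill this gap, so no guide was compared with the non-targeting control and no fl/fl tumour with wildtype. The genes were compared across libraries, between the lentiviral and Krt5-Cre arms, and with each other.

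A dividing cell licenses its replication origins by loading the Mcm2-7 helicase with Cdc6 and Cdt1, copies its DNA with factors such as the Gins complex and the sliding clamp Pcna, and draws nucleotides from ribonucleotide reductase (Rrm2) and thymidylate synthase (Tyms). Cyclin E starts this phase; cyclins A and B with Cdk1 drive mitosis, which Cdc20 and Ube2c end by directing the anaphase-promoting complex. Transcription is timed by E2F factors at many replication genes and, later, by the MuvB complex with Mybl2 and Foxm1 at many mitotic genes, often through an element called CHR. In tumours, the summed messages of such genes are widely used as a gauge of proliferation.

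Promoters show this division of the genes in their sequence. RefSeq promoter windows (build GRCm38.p6, 250 bases before to 50 after the gene start) were available for 33 of the 42 genes. The sequence elements were searched on both strands: CHR as TTTGAA or TTCGAA, an E2F element as TTTCCCGC, TTTCGCGC, TTTGCCGC or TTTGGCGC, and the CCAAT box as CCAAT. Stretches of 180 bases, from 150 before to 30 after the start, are printed in gene orientation with CHR and E2F matches in capitals. The first 3 are mitotic exit and cyclin genes that were lower in the Krt5-Cre arm, each with a CHR match; they are Cdc20 (chr4:118437314-118437493, minus strand), Ube2c (chr2:164769779-164769958, plus strand) and Ccnb2 (chr9:70421525-70421704, minus strand).
Cdc20: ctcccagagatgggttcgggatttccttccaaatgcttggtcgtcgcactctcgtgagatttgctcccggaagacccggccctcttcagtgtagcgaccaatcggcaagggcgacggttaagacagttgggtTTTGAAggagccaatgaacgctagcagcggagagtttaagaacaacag
Ube2c: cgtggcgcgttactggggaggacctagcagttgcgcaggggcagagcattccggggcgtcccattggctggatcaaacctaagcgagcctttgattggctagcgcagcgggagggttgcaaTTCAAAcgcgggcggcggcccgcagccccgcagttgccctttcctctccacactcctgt
Ccnb2: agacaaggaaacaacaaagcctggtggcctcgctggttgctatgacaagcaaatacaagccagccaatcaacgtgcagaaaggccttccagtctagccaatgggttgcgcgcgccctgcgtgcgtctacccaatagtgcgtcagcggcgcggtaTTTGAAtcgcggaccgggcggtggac
Ube2c carries the element on the opposite strand, so the printed strand reads TTCAAA, and in Ccnb2 the element lies just after the start. Replication licensing genes with an E2F match are shown for contrast: Mcm5 (chr8:75109359-75109538, plus strand), Mcm6 (chr1:128359676-128359855, minus strand) and Cdc6 (chr11:98908001-98908180, plus strand).
Mcm5: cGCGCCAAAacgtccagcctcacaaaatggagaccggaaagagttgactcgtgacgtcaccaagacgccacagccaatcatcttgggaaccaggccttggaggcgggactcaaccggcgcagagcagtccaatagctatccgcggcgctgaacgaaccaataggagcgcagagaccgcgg
Mcm6: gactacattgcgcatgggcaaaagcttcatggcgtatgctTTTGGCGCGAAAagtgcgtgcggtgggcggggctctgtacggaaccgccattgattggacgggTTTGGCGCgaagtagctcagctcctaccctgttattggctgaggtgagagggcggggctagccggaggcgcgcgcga
Cdc6: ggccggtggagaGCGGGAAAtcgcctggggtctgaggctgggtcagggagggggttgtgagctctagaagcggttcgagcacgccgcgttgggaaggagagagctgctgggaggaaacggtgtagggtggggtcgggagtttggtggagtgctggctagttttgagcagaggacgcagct
Mcm6 has 3 matches, of which 2 overlap on opposite strands and form the longest run of capitals. Cdk1, the kinase that cyclins A and B activate, has both kinds of element (chr10:69352883-69353062, minus strand): an E2F match first, then 2 CHR matches.
Cdk1: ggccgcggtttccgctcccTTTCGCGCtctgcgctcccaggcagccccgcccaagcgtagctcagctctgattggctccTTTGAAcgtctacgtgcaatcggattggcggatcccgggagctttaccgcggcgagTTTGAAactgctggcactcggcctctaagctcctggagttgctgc

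A CHR match was present in 14 of 18 mitosis genes with a promoter entry (77.8%), in 2 of 10 replication and nucleotide supply genes (20.0%) and in 5854 of 27025 genes overall (21.7%). The E2F element showed the opposite split, with 6 of 10 replication and nucleotide supply genes (60.0%: Mcm3, Mcm5, Mcm6, Mcm7, Cdc6 and Cdt1), 1 of 18 mitosis genes (5.56%, Cdk1) and 2.60% of all genes. A second, overlapping form of the E2F element (TTCCCGCC, TTCGCGCC, TTGCCGCC or TTGGCGCC), tried after the first, was found in 5 of those 10 genes, 2 of the 18 and 4.59% of all genes. CCAAT boxes were frequent in both classes, at 7 of 10 and 16 of 18 genes against 41.1% overall. Mki67 and Top2a, counted in neither class, both had CHR matches. CHR matches did not follow the Krt5-Cre calls in every gene. Birc5, called lower, had none, and Bub1 and Kif11, not called, each had a match. Whether matches go with the calls was not tested. A match describes letters in this window and shows no binding. No promoter entry was matched for Mcm4, Gins2, Ccne2, Ccna2, Cdc25c, Aurkb, Tpx2, Kif20a and Foxm1.

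**Figure D1:**
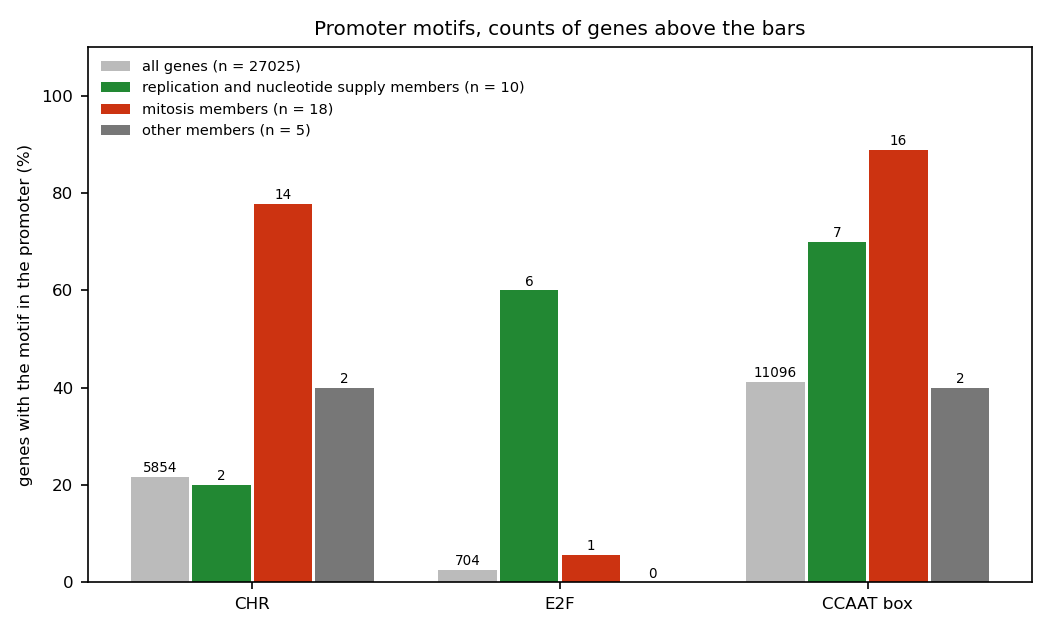
Share of genes (percent, from 0) whose RefSeq promoter window holds a CHR, E2F or CCAAT match, for all genes and for 3 classes of the 42 genes; numbers over the bars count genes. CHR matches reach 77.8% of the mitosis genes, and E2F matches 60.0% of the replication and nucleotide supply genes.

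Libraries held 9084993 to 43673097 counts in the lentiviral arm, 12946447 to 22164605 in the Krt5-Cre arm of the first table, and 7733478 and 14562103 in libraries 23 and 24. Library 13 stood apart, with 12757 genes detected against a lentiviral median of 22208, and 17.9% of its counts in 10 genes; Ccne1 and Ccne2 were at 0 there, which allows up to 0.235 CPM (counts scaled to a common library total). Library 21 had the highest summed level of 8 immune markers, 13702 CPM, against 37.7 CPM in library 20 and 31.2 to 8083 CPM in the lentiviral arm (highest in library 12). Its basal markers summed to 394 CPM, the lowest of the 25 libraries, although Krt5 itself was detected in every library (118 to 7720 CPM). Fibroblast markers were highest in libraries 19, 16 and 18, at 73679, 68492 and 53847 CPM. No pair of libraries agreed within sampling noise, but some were much closer than others. The chi-square of counts per degree of freedom was 12.8 for libraries 3 and 4, 15.1 for 10 and 11, 15.8 for 14 and 15, and 17.8 for 23 and 24. The next closest pair, 1 and 2, had 47.3. Whether such pairs share an animal is not given, and the tests treated libraries as separate samples.

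On a length-corrected scale (TPM, which divides counts by annotated exon length before scaling), Pcna was the most abundant of the 42 genes over the lentiviral libraries, with a median of 130 TPM (56.5 to 191). Cdc20 (74.3 TPM) and Ccnb2 (61.8 TPM) followed, then Mcm4, Mcm6 and Mcm5 at 56.0 to 58.1 TPM. The lowest medians belonged to the licensing factor Cdc6 (3.22 TPM) and to Ccne2 (3.67 TPM). Ranges of neighbouring genes in this order overlapped widely, so their order is not resolved.

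Summed over the 42 genes, the lentiviral libraries ranged from 633 CPM (library 9) through a median of 1464 to 3664 CPM (library 18). Library 18 had the highest lentiviral value for 34 of the 42 genes and library 19 for 6. The lowest lentiviral value fell in library 9 for 21 genes, in library 13 for 8, in library 4 for 7 and in library 6 for 6. The Krt5-Cre libraries 20, 22, 21 and 25 summed to 603, 598, 1191 and 1348 CPM, and the fl/fl libraries 23 and 24 to 1252 and 1521 CPM. Libraries 20 and 22 therefore lay below every lentiviral library, while 21 and 25 lay within the lentiviral range. In bulk RNA, fewer cycling cells and less of these messages per cell cannot be told apart.

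**Figure D2:**
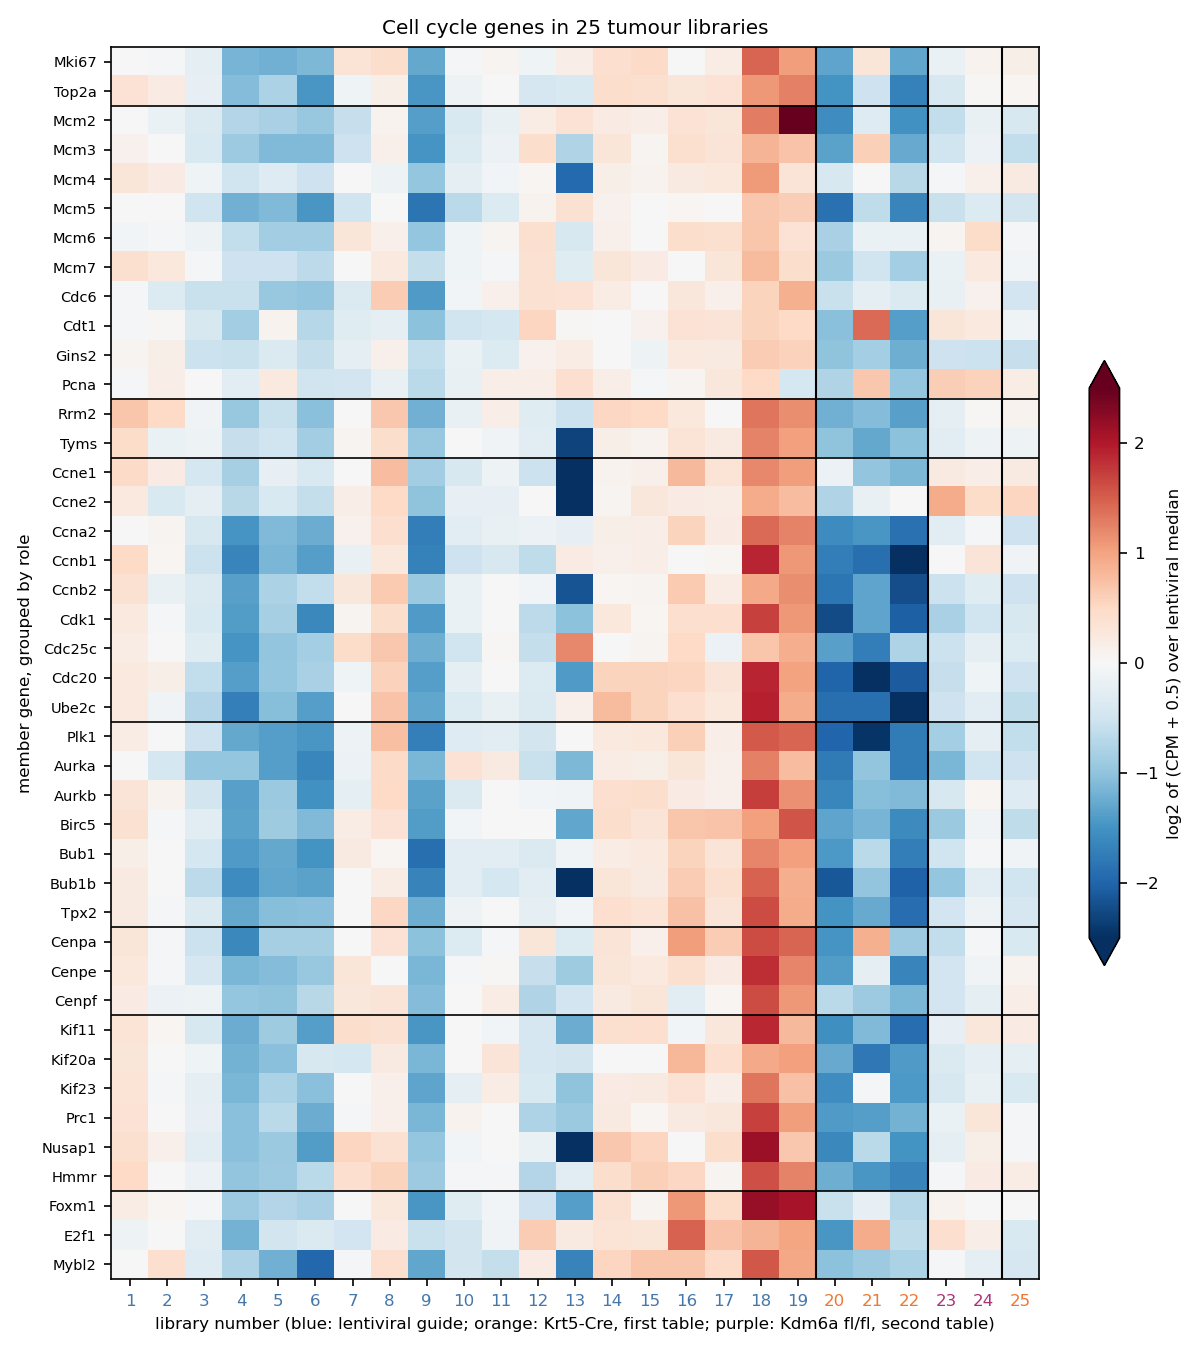
Each row is 1 of the 42 genes, grouped by role, and each column a library; colour gives log2 of (CPM + 0.5) over the lentiviral median, with values past 2.5 in either direction drawn in the end colours. Libraries 18 and 19 are high and libraries 4, 5, 6, 9, 20 and 22 low in nearly all rows, and library 21 has Mcm3, Cdt1 and Pcna above the lentiviral median and most mitotic genes below it.

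These genes varied more between lentiviral libraries than most genes did. The median standard deviation (SD) of log2 CPM was 0.771 for the 41 of them with a mean of at least 5 CPM, against 0.425 for all 11513 such genes, and 0.756 against 0.353 without library 13. Pcna (SD 0.33), Gins2 (0.38) and Mcm7 (0.40) varied least. Nusap1 (1.39), Bub1b (1.37) and Ccne1 (1.16) varied most, but without library 13 their SDs were 0.82, 0.87 and 0.61. Foxm1, a transcription factor of late cycle genes, kept an SD of 0.93 without that library, with lentiviral levels of 7.73 to 100 CPM.

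Single genes departed from the common order of the libraries. Nusap1, which bundles spindle microtubules, was at 75.0 CPM in library 18 and 26.7 CPM in library 19. Mcm2 differed in the other direction. This subunit of the replicative helicase was at 360 CPM in library 19 and 149 CPM in library 18, against a lentiviral median of 61.2 CPM. The helicase subunits Mcm3, Mcm4, Mcm5, Mcm6 and Mcm7 were at 90.4, 77.1, 108, 105 and 75.9 CPM in library 19, all below their values in library 18. E2f1 was highest in library 16, at 40.0 CPM against a median of 14 CPM. Cdc25c, the phosphatase that activates Cdk1, was highest in library 13, at 18.9 CPM.

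The mitosis genes spanned a wider range than the replication genes. Taking each gene relative to its lentiviral median, the 23 mitosis genes had a median log2 ratio of 1.63 in library 18 and 1.04 in library 19, while the 12 replication and nucleotide supply genes had 0.75 and 0.60. At the low end, the mitosis median was -1.33 in library 4, -1.31 in library 9, -1.56 in library 20 and -1.72 in library 22, and the replication median -0.60, -1.0, -1.01 and -1.12. The low and high libraries therefore differed more in the mitotic than in the replication genes.

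Library 21 had the widest gap between both classes, with a mitosis median of -1.25 and a replication median of -0.28. There Cdt1 was at 58.5 CPM, Pcna at 150 CPM, Mcm3 at 83.2 CPM and E2f1 at 27.1 CPM, each the highest of the 4 Krt5-Cre libraries. Plk1 (2.70 CPM) and Cdc20 (6.58 CPM) were the lowest of those 4 there. Mki67 (160 CPM) and the centromeric histone Cenpa (52.8 CPM) lay above the lentiviral median. This is the library with the highest immune and lowest basal marker sums, and the part of those markers in the gap was not tested. Library 12, with the second highest immune sum, had a mitosis median of -0.38 and a replication median of 0.17. Libraries 16 and 17, next in immune sum (4970 and 4277 CPM), had mitosis medians of 0.49 and 0.26. Their replication medians were 0.28 and 0.27. Library 4, with an immune sum of 272 CPM, had -1.33 for mitosis and -0.60 for replication.

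**Figure D3:**
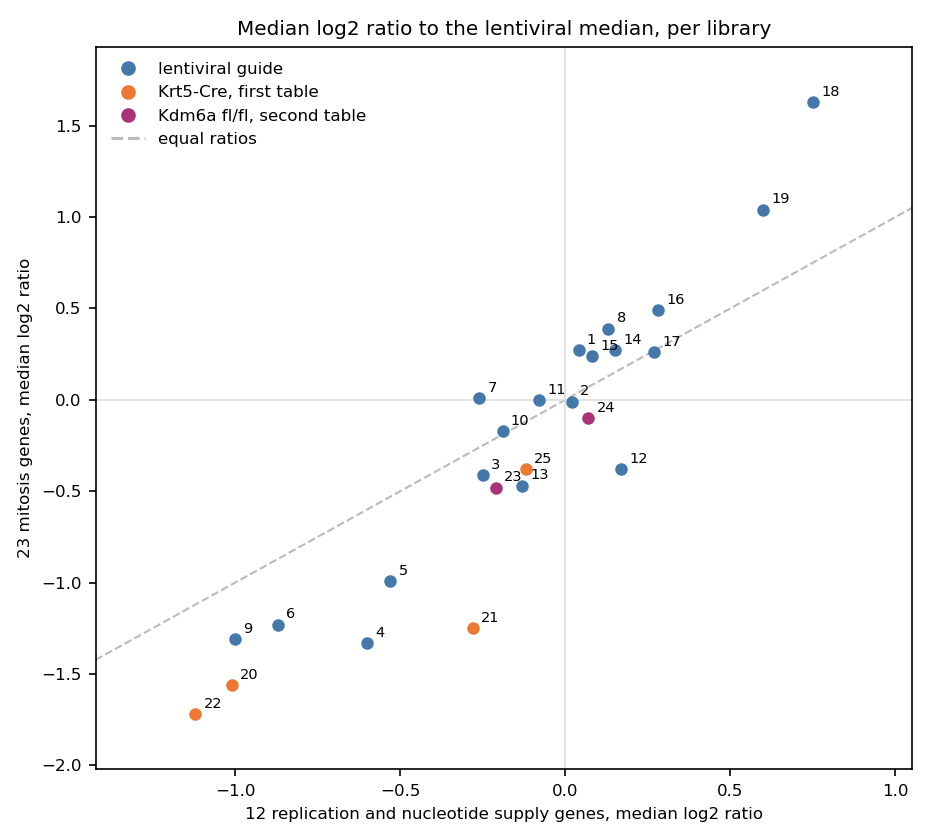
Median log2 ratio to the lentiviral median per library, for 12 replication and nucleotide supply genes (x axis) and 23 mitosis genes (y axis); points are numbered libraries and the dashed line marks equal ratios. Library 18 lies at 0.75 and 1.63, library 22 at -1.12 and -1.72, and library 21 at -0.28 and -1.25.

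The Krt5-Cre arm was then compared with the lentiviral arm, using libraries 20, 21, 22 and 25 (n = 4) against libraries 1 to 19 (n = 19). In the Krt5-Cre arm, 9 mitotic and replication genes were lower: Gins2, Ccna2, Ccnb2, Cdc20, Ube2c, Plk1, Birc5, Tpx2 and Kif20a. None was higher, and Mki67 and Pcna did not pass. By edgeR's quasi-likelihood test with Benjamini-Hochberg adjustment over 16922 genes, 9 of the 42 genes were called lower, where 9.50% of all genes were called lower and 14.4% higher. Fold changes were below 0 for 40 of the 42 genes and for 7923 of the 16922 genes tested. The median log2 fold change was -0.94 against 0.06 for all genes tested. An edgeR unadjusted p under 0.05 was found for 19 of the 42 genes and for 6070 of the 16922. All 42 genes passed the filter on low counts. Levels per library are given in plain CPM, while the fit also scaled each library by a TMM factor. That factor was 0.757 in library 21 and 1.25 in library 22, against 0.877 to 1.09 in the lentiviral arm. For genes such as Gins2 and Ube2c, whether library 21 lies under the lentiviral range depends on this scaling.

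These calls rested on few libraries. Without library 20 or without library 22, none of the 42 genes passed in edgeR, and without library 21 Gins2 alone did. Over these 3 fits the edgeR adjusted p of the 9 genes ran from 0.0196 to 0.156. The median log2 fold change was then -0.82, -0.75 and -1.07, so the direction stayed and the calls did not. Libraries 20 and 22 also had the highest sums of 3 skeletal muscle markers, 26.6 and 43.7 CPM, against at most 5.34 CPM in the lentiviral arm and 5.73 and 0.631 CPM in libraries 21 and 25. Nearly all of this was the muscle actin Acta1 (42.5 CPM in library 22), itself called higher in the Krt5-Cre arm at 4.53 ± 0.81 (log2, edgeR adjusted p = 3.33e-04), while Myh1 and Ckm reached at most 0.695 and 0.541 CPM in that arm. Library 22 had the highest endothelial sum, 317 CPM against at most 210 CPM in the lentiviral arm. The part of these markers in the 9 calls was not tested.

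Without library 25 there were 16 calls, and without libraries 13 and 21, 5. Adding the fl/fl libraries 23 and 24, which were counted in a separate table, gave 3. Without the 6 deepest lentiviral libraries there were 4 calls and a median of -0.60. Over all genes, 4049 were called in either direction in the full fit, and 2888 to 5112 when single libraries were left out. There were 4171 without libraries 13 and 21, 3585 with libraries 23 and 24 added, and 3049 without the 6 deepest. Virus, Cre promoter, strain cross, guide and experiment differ together between the arms and cannot be told apart, and the lentiviral arm mixes 7 guides.

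**Figure D4:**
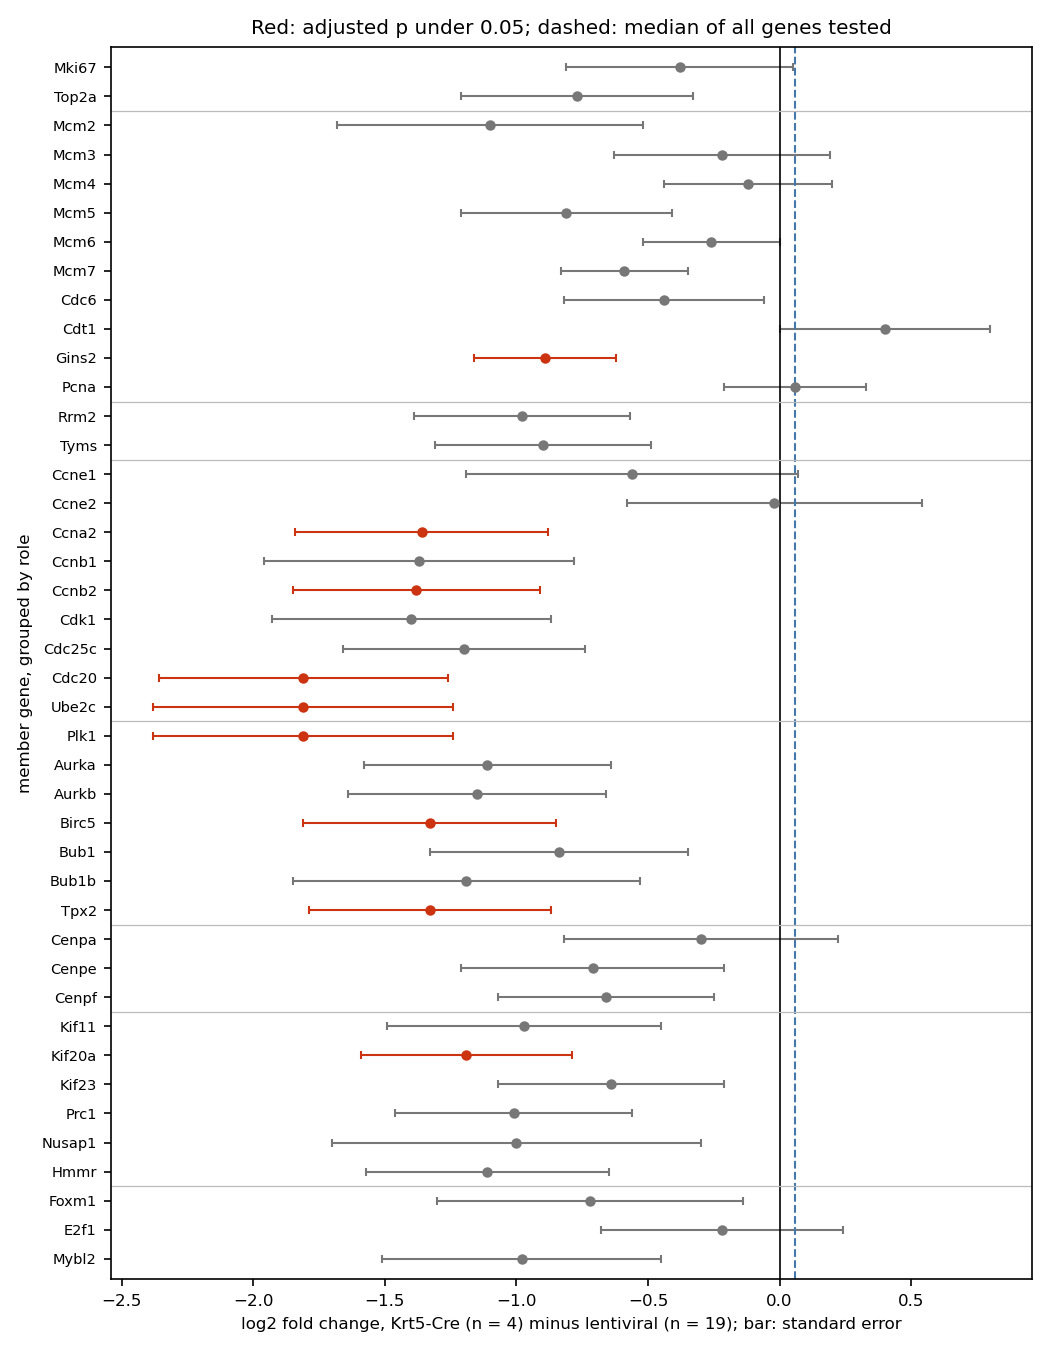
Log2 fold change of each of the 42 genes, Krt5-Cre (n = 4) minus lentiviral (n = 19), as points with standard errors; red marks adjusted p under 0.05 and the dashed line the median of all genes tested (0.06). Points lie left of 0 for all but Cdt1 and Pcna, and the 9 red genes lie between -0.89 and -1.81.

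Among the cyclins, Cdk1 and its switches, 4 of 9 genes were lower. Cdc20, which activates the anaphase-promoting complex, was at 14.4 to 147 CPM in the lentiviral arm (median 39.1) and at 9.34, 6.58, 8.88 and 27.2 CPM in libraries 20, 21, 22 and 25. The first 3 lay below every lentiviral library and library 25 within the range. The log2 fold change was -1.81 ± 0.55 (SE), with an edgeR adjusted p of 0.0196. Ube2c, the ubiquitin-conjugating enzyme of that complex, was at 6.88 to 92.3 CPM (median 23.7) in the lentiviral arm. It was at 6.09, 6.02, 3.71 and 15.1 CPM in the 4 Krt5-Cre libraries, with library 25 alone inside the lentiviral range on the unscaled CPM. Its log2 fold change was -1.81 ± 0.57 (edgeR adjusted p = 0.0235).

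The mitotic cyclins shifted by similar amounts. Ccna2 (cyclin A2) was at 9.57 to 87.7 CPM (median 32.7) in the lentiviral arm and at 10.6, 11.7, 8.57 and 22.6 CPM in libraries 20, 21, 22 and 25. All 4 lay below the lentiviral median, but 3 of them above its lowest library. The log2 fold change was -1.36 ± 0.48 (edgeR adjusted p = 0.0431). Ccnb2 (cyclin B2) was at 5.88 to 63.0 CPM (median 28.0) against 7.62, 10.9, 5.64 and 19.5 CPM. The low end of its lentiviral range was library 13, and the log2 fold change was -1.38 ± 0.47 (edgeR adjusted p = 0.0357).

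Ccnb1 (cyclin B1) and Cdk1 had fold changes of like size without passing. Ccnb1 was at 6.27, 5.59, 3.48 and 20.7 CPM in libraries 20, 21, 22 and 25, against 6.49 to 84.3 CPM (median 22), and its log2 fold change was -1.37 ± 0.59 (edgeR adjusted p = 0.0915). Cdk1 was at 8.17, 15.7, 9.35 and 30.4 CPM against 12.8 to 133 CPM (median 40.1), at -1.40 ± 0.53 (edgeR adjusted p = 0.0581). For both genes library 25 stood within the lentiviral range and library 20 under it. The cyclin E genes, which act at the start of replication, were at -0.56 ± 0.63 (Ccne1) and -0.02 ± 0.56 (Ccne2). Ccne1 was at 8.26, 4.36, 3.94 and 10.8 CPM in the Krt5-Cre libraries, against 0 to 21.6 CPM (median 9.16).

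Of the 7 mitotic kinase and checkpoint genes, 3 were lower. Plk1, a kinase needed for spindle assembly and mitotic entry, was at 4.83 to 50.3 CPM (median 17) in the lentiviral arm. In libraries 20, 21, 22 and 25 it was at 3.93, 2.70, 4.71 and 10.9 CPM, the first 3 below every lentiviral library. The log2 fold change was -1.81 ± 0.57 (edgeR adjusted p = 0.0226). Birc5 (survivin), a subunit of the chromosomal passenger complex, was at 7.72, 8.67, 6.26 and 12.7 CPM against 7.33 to 60.1 CPM (median 20.0), with a log2 fold change of -1.33 ± 0.48 (edgeR adjusted p = 0.0475). Tpx2, which activates Aurora A at the spindle, was at 13.1, 15.6, 9.81 and 28.2 CPM against 15.2 to 118 CPM (median 37.9), with -1.33 ± 0.46 (edgeR adjusted p = 0.0380). For Birc5 and Tpx2 all 4 Krt5-Cre libraries lay in or under the lower part of the lentiviral range.

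Aurkb, the kinase of the passenger complex, was at 4.56, 6.96, 6.72 and 12 CPM in the Krt5-Cre libraries against 4.97 to 50.9 CPM (median 15.1). Its log2 fold change of -1.15 ± 0.49 did not pass (edgeR adjusted p = 0.0930). The checkpoint kinase Bub1 was at 5.64, 10.0, 4.56 and 15.1 CPM against 4.01 to 38.5 CPM (median 16.2), at -0.84 ± 0.49. In both genes every Krt5-Cre library lay below the lentiviral median. Aurka and Bub1b had log2 fold changes of -1.11 and -1.19 and did not pass.

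Of 6 spindle and cytokinesis genes, Kif20a alone was called. This kinesin of the central spindle was at 10.8, 7.34, 9.58 and 22.3 CPM in libraries 20, 21, 22 and 25, against 11.4 to 54.7 CPM (median 26.5). The log2 fold change was -1.19 ± 0.40 (edgeR adjusted p = 0.0327). The spindle motor Kif11 was at 10.8, 14.8, 8.26 and 37.4 CPM against 11.5 to 121 CPM (median 32.4), so that library 25 lay above the lentiviral median; its log2 fold change was -0.97 ± 0.52. Kif23, Prc1, Nusap1 and Hmmr had log2 fold changes of -0.64 to -1.11 and did not pass.

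None of the 3 centromere genes passed. Cenpa, the histone that marks centromeres, was at 9.75, 52.8, 14.8 and 21.5 CPM in libraries 20, 21, 22 and 25, against 8.82 to 88.8 CPM (median 28.2). Library 21 lay above the lentiviral median and the others below it, and the log2 fold change was -0.30 ± 0.52, or -1.29 without library 21 (edgeR adjusted p = 0.128). Cenpe and Cenpf, kinetochore proteins, were at -0.71 and -0.66.

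Of 10 replication licensing and fork genes, 1 was lower. Gins2, a subunit of the replicative helicase, was at 6.18, 6.87, 5.25 and 8.49 CPM in libraries 20, 21, 22 and 25, against 8.18 to 20.2 CPM (median 12.9). In 3 Krt5-Cre libraries its unscaled CPM lay below every lentiviral one, but the TMM factor of 0.757 moves library 21 up on the fit's scale. The log2 fold change was -0.89 ± 0.27 (edgeR adjusted p = 0.0180). Gins2 shares 67.3% of its annotated exon bases with other annotated genes, most of all the neighbouring gene Gse1, so the source of its counts is uncertain. Smaller shares, given with the gene sharing most, apply to Kif20a (29.3%, Cdc23), Ube2c (22.8%, Tnnc2) and Ccna2 (12.5%, Exosc9).

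The other replication genes did not pass. Mcm2 was at 20.4, 48.7, 21.1 and 46.3 CPM in the Krt5-Cre libraries against 23.1 to 360 CPM (median 61.2), with a log2 fold change of -1.10 ± 0.58. Mcm5 was at 18.8, 44.7, 21.9 and 50.5 CPM against 19.3 to 112 CPM (median 69.7), at -0.81 ± 0.40. For both genes libraries 20 and 22 formed the low pair. Mcm3, Mcm4, Mcm6, Mcm7 and Cdc6 had log2 fold changes between -0.12 and -0.59.

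Pcna, the clamp that holds polymerases on DNA, split the Krt5-Cre arm instead of shifting it. Libraries 20 and 22 were at 56.0 and 47.7 CPM, below every lentiviral library, and libraries 21 and 25 at 150 and 107 CPM, above the lentiviral median of 94.2 CPM (range 58.4 to 134). The log2 fold change was 0.06 ± 0.27 with library 21 and -0.54 without it, and it was not called in either fit. Of the Krt5-Cre libraries of the first table, Cdt1 was high in library 21 alone, with 58.5 CPM there against 10.2, 8.11 and 20.0 CPM in libraries 20, 22 and 25, which all lay below the lentiviral median, and a log2 fold change of 0.40 ± 0.40. Both fl/fl libraries were high in Pcna, at 145 and 140 CPM, above every lentiviral library.

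The nucleotide supply genes did not pass. Rrm2 was at 16.6, 18, 14.8 and 41.2 CPM in libraries 20, 21, 22 and 25 against 16.7 to 99.0 CPM (median 38.9), with a log2 fold change of -0.98 ± 0.41 (edgeR adjusted p = 0.0890). Library 25 alone lay above the lentiviral median. Tyms was at -0.90 ± 0.41.

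Of the proliferation marks, Mki67 was at 52.4, 160, 52.9 and 145 CPM in libraries 20, 21, 22 and 25, against 53.5 to 359 CPM (median 131). Libraries 20 and 22 lay just below the lowest lentiviral library, and 21 and 25 above the lentiviral median. The log2 fold change was -0.38 ± 0.43 (edgeR adjusted p = 0.565), or -0.90 without library 21. Top2a, the topoisomerase that untangles chromosomes, was at 40.9, 81.7, 35.9 and 120 CPM against 42.3 to 279 CPM (median 117), at -0.77 ± 0.44. In library 21 Mki67 was above the lentiviral median and Top2a below it.

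The 3 transcription factors did not pass. Foxm1 was at 14.8, 18.9, 13.1 and 22.2 CPM in libraries 20, 21, 22 and 25 against 7.73 to 100 CPM (median 21.9), and its log2 fold change was -0.72 ± 0.58. Mybl2, the MuvB partner, was at 3.83, 4.22, 4.63 and 6.08 CPM against 1.78 to 25.4 CPM (median 8.36), at -0.98 ± 0.53. E2f1 was at 4.78, 27.1, 8.81 and 10.6 CPM against 5.90 to 40.0 CPM (median 14), at -0.22 ± 0.46. E2f1 in library 21 was high together with Cdt1 and Pcna there, and without that library its log2 fold change was -1.21 (edgeR adjusted p = 0.0885).

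**Figure D5:**
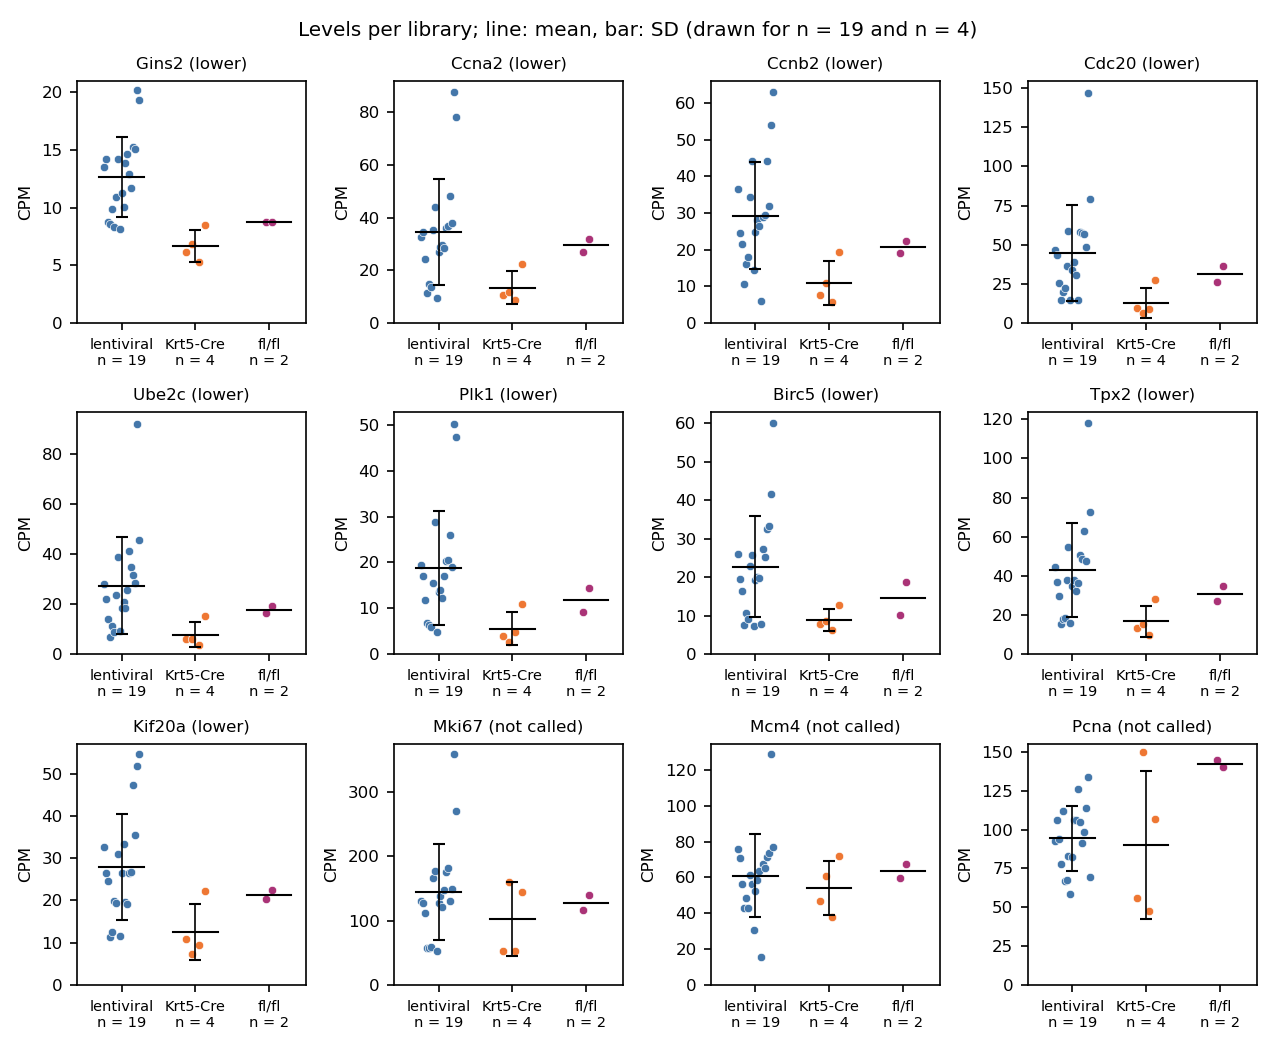
CPM per library for the 9 genes called lower and for Mki67, Mcm4 and Pcna, in the lentiviral libraries (n = 19), the Krt5-Cre libraries of the first table (n = 4) and the Kdm6a fl/fl libraries of the second table (n = 2); lines are means and bars SDs. Cdc20 has 3 of 4 Krt5-Cre libraries below the lowest lentiviral value of 14.4 CPM, and Pcna has the Krt5-Cre libraries both above and below most of the lentiviral ones.

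The fl/fl libraries 23 and 24 lay above the low Krt5-Cre libraries 20 and 22 for most mitotic genes. Their mitosis medians, relative to the lentiviral medians, were -0.48 and -0.10, against -1.56 and -1.72 in libraries 20 and 22. Cdc20 was at 26.0 and 36.4 CPM, Plk1 at 9.18 and 14.5 CPM and Ccnb1 at 22.1 and 27.5 CPM. Ccne2 was highest of all 25 libraries in library 23, at 8.53 CPM, a value that library 18 shared to 3 digits. These 2 libraries were counted in a separate table, and no test between them and the others was made beyond the fit that added them.

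Other cell cycle genes were taken from 3 further lists. Of 43 other mitosis genes, 4 were lower and 1 higher in the Krt5-Cre arm, where 9.50% of all genes were called lower and 14.4% higher, so neither count stands above the share over all genes. The median log2 fold change was -0.77, and 40 were below 0. Spc24, a kinetochore subunit, was at a mean of 4.03 CPM against 11.5 CPM (-1.49 ± 0.46), and Ttk, a checkpoint kinase, at 3.69 against 9.01 CPM (-1.30 ± 0.43). Cks1b, a Cdk-binding protein, was at 16.3 against 32.3 CPM (-1.02 ± 0.29). Hjurp, the chaperone that loads Cenpa, was higher, at 111 against 64.1 CPM (0.73 ± 0.16, edgeR adjusted p = 0.00226), also when any 1 Krt5-Cre library was left out (0.52 to 0.96). Spc24 and Ttk did not pass without library 20, 21 or 22, nor Cks1b without 21 or 22.

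Of 39 other replication genes, 3 were lower and none higher, a smaller share than the 9.50% of all genes called lower. The median log2 fold change was -0.57. An edgeR unadjusted p under 0.05 was found for 14 of the 39, a share near that of all genes (6070 of 16922). Dut, which removes dUTP, was at 20.7 against 60.0 CPM (-1.58 ± 0.39), and Gins4 at 13.5 against 23.6 CPM (-0.79 ± 0.18). Both passed when any 1 Krt5-Cre library was left out, and Gins4 is a partner of Gins2 in the same complex. With libraries 23 and 24 added, Dut did not pass (-0.73). Fen1, the flap endonuclease, was at 0.362 against 1.34 CPM. Of its exon bases 84.2% are shared with other annotated genes, most of all Gm10143, and its counts are uncertain. Its call was lost without library 20, 21 or 25 (edgeR adjusted p = 0.118, 0.0688 and 0.0753).

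Of 32 cell cycle regulators, 1 was lower and 3 higher, both smaller shares than over all genes (9.50% and 14.4%), and the median log2 fold change was -0.09. Gmnn (geminin), the inhibitor of Cdt1, was at 4.47 against 12.6 CPM (-1.45 ± 0.41). Lin54, the DNA-binding subunit of MuvB, was higher, at 24 against 14 CPM (0.92 ± 0.29), with all 4 Krt5-Cre libraries above the lentiviral median. E2f5, an E2F factor known as a repressor (0.43 ± 0.16), and Rbl2, a pocket protein that binds such factors (0.36 ± 0.13), were also higher. The edgeR adjusted p-values of Lin54, E2f5 and Rbl2 were 0.0206, 0.0481 and 0.0436. Without library 21 none of these 3 passed, and Lin54 was at 0.13, so its difference rested on that library. E2f5 and Rbl2 did not pass without library 20, 22 or 25 either, so their calls were lost whichever Krt5-Cre library was left out. Gmnn did not pass without library 20 or 22.

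Across the 19 lentiviral libraries, most of the genes followed Mki67. By a permutation test of Pearson's r on log2(CPM + 0.5), with adjustment over 14122 genes, 34 of the other 41 genes were positively correlated with Mki67, against 3.82% of all genes. The median r was 0.863 for the 41 genes and -0.01 over all genes. Aurkb (r = 0.96, rho = 0.87), Bub1 (0.96, 0.87) and Ccna2 (0.96, 0.86) followed it most closely, each with a permutation p of 1e-05, the smallest that 100000 permutations can give, and an adjusted p of 0.00107. Spearman's rho passed, and was positive, for 37 of the 41 genes and for 4.42% of all genes. Tumours with the same guide may not be independent, and the guides of the libraries are not known here.

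The libraries fell into 3 ranges of Mki67. It lay at 53.5 to 59.4 CPM in 4 lentiviral libraries, at 111 to 182 CPM in 13, and at 270 and 359 CPM in libraries 19 and 18. Without libraries 18 and 9, the farthest from the median, 28 genes passed, against 1.53% of all genes, and the median r was 0.806. Within the 13 middle libraries none of the 41 genes passed, and no gene of all 14122 did. The median r was 0.259 for the 41 genes and 0.06 over all genes. These libraries were chosen by their Mki67. A narrowed range lowers r for a gene that does follow Mki67, so the relation could not be judged there. Ube2c kept the highest r there, 0.81, and Aurkb had 0.64. The summed dissociation genes (r = -0.62), total counts (0.38), fibroblast markers (0.02) and immune markers (-0.08) are given as descriptions over the same 19 libraries; their part in the relation was not tested.

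Of the 7 genes that did not pass, 6 did so without library 13. The share of all genes positively correlated also rose, from 3.82% to 7.48%. Nusap1, a microtubule-bundling protein, was at 0.0784 CPM in library 13 and its r rose from 0.49 to 0.95 without it; Bub1b went from 0.53 to 0.95, Ccne2 from 0.45 to 0.92, Tyms from 0.62 to 0.92, Mcm4 from 0.55 to 0.86 and Ccne1 from 0.35 to 0.80. Pcna kept an r of 0.38 (permutation p = 0.113, adjusted p = 0.439), and its r was 0.00 without libraries 18 and 9. Its lentiviral maximum of 134 CPM was in library 18, but library 19, second in Mki67, had 69.2 CPM of Pcna. Pcna is thus the member of the list that followed the proliferation mark least when library 13 is left out.

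Outside all the lists, the genes most like Mki67 among those with a mean of at least 10 CPM were Timeless (r = 0.95, rho = 0.85), Kifc1 (0.94, 0.92), Kif20b (0.94, 0.85), Kntc1 (0.93, 0.75) and Knstrn (0.93, 0.85). Timeless acts at the replication fork, Kifc1 and Kif20b are kinesins, and Kntc1 and Knstrn act at the kinetochore. Of the other lists, 26 of 43 mitosis genes, 25 of 39 replication genes and 6 of 32 regulators were positively correlated, where 3.82% of all genes were. None was negatively correlated. Rbl2 had the lowest r of the regulators, -0.60, and Melk the highest of the mitosis genes, 0.97.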

How the data were processed

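Gene counts per tumour library were taken as the authors deposited them: raw counts per gene symbol in 2 tables, not normalized. The submitters' processing notes list HISAT2 2.1.0, featureCounts, DESeq2 and the builds mm10 and GRCm38; the annotation release and strand setting are not stated in them. The second table has 26 rows with a date in place of a symbol, which stayed in its totals. CPM used library totals, and TPM GENCODE M21 exon lengths. The arms were compared with edgeR 4.0.16 (R 4.3.3; TMM, filterByExpr, quasi-likelihood test, robust), with Benjamini-Hochberg adjustment over all genes and a threshold of 0.05; standard errors came from the F statistic. Correlations used numpy 2.4.6, a pseudocount of 0.5 CPM and 100000 two-sided permutations, adjusted over all genes instead of over the listed genes as first planned. DESeq2 1.42.0 served as an alternative. The analysis was tested on simulated data. Members and lists were chosen with earlier results of these data known. Genes named in full were 19 fixed members, every other called member, the 3 called genes of largest change in each direction from each further list, and the 5 outside genes most like Mki67; others are given in passing. Several alternatives were chosen after seeing the data: leaving out libraries 13 and 21, libraries 18 and 19, or the 6 deepest libraries, and for the correlations library 13 or all but the middle libraries.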

Additional observations from a re-analysis of the deposited data

Results flagged for a closer look

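Among the 4 Krt5-Cre libraries of the first table, 6 of the 42 genes had library 25 far above the other 3. For normally distributed values, chance flags any of the 4 libraries, at either end, in about 1 gene in 20. That rate is not the one for library 25 at the high end, and the CPM values were not checked for normality. The flag was not sought over all genes, so whether 6 of the 42 is a high share in these libraries was not tested. Rrm2 was at 41.2 CPM against 14.8 to 18 CPM in the others, and Tyms at 22.2 CPM against 9.62 to 11.7 CPM. Ccnb1 was at 20.7 CPM against 3.48 to 6.27 CPM, and Cdc20 at 27.2 CPM against 6.58 to 9.34 CPM. Prc1 was at 30.8 CPM against 11.5 to 13.5 CPM, and Hmmr at 23.1 CPM against 6.10 to 8.39 CPM. Library 25 had the highest value of the 4 for 33 of the 42 genes, and the genes are not independent of each other.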

How the results depend on the processing

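Of the 42 genes, 9 were called lower, and 8 with DESeq2's size factors in edgeR, 13 with the DESeq2 test, 9 without a filter, 8 with a mean of at least 1 CPM and 8 without libraries 18 and 19. Over all genes, the calls in either direction were 4049 in the full fit, 4264 with DESeq2's size factors and 5938 with the DESeq2 test. They were 5722 without a filter, 3439 with a mean of at least 1 CPM and 3850 without libraries 18 and 19. Among the 42 genes, the count was 3 with libraries 23 and 24 added, 5 without libraries 13 and 21, and 4 without the 6 deepest libraries. Leaving out each library in turn gave 0 to 16 calls among the 42 genes, 5 to 22 among the 3 further lists (12 in the full fit, 19 with DESeq2) and 2888 to 5112 among all genes. The median log2 fold change of all genes was 0.12 with the DESeq2 size factors and 0.19 with the DESeq2 test. Pcna changed sign, to -0.03 without a filter and -0.54 without library 21, within -0.54 to 0.31 when single libraries were left out, and to -0.50 without libraries 13 and 21. E2f1 was at 0.06 without library 20 (range -1.21 to 0.06 over single libraries left out). Cenpa was at 3.13e-03 without libraries 18 and 19 and 2.52e-03 without the 6 deepest libraries. The cause was not tested, except that fits with fewer libraries test fewer samples. Correlations with Mki67 passed for 34 genes with TMM scaling or a pseudocount of 2 CPM and for 0 within the 13 middle libraries, a range narrowed by choice. No paired analysis was possible because the count columns carry no replicate number. With 3 counts as the limit, a count of 0 allows 0.0687 to 0.388 CPM, for counting error only.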
